A study of Mus musculus with 8 samples.

Results

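The genes described here are Ifng, which encodes interferon gamma, Tbx21 and Eomes, which encode the T-box transcription factors T-bet and Eomes, and Ifngr1 and Ifngr2, which encode the chains of the interferon gamma receptor. They are 5 of the 19330 genes in the deposited table, taken by symbol, and each symbol had a single row. They were picked because their levels differed between the groups, so their values in that comparison are given as a description, without a test. The cells were regulatory T cells (Tregs), grown from naive CD4+ T cells of B6 mouse spleen under polarizing conditions for 3 days. Each group has 4 libraries, a control group and a group cultured in the presence of oxPAPC, a mixture of oxidation products of the phospholipid PAPC. Whether the replicates are separate mice or cultures is not in the labels, so p-values cover the variation among these libraries alone, which may be technical. Library totals ran from 14017583 to 21619731 counts. The cells carried the markers of the labelled type: Foxp3, the Treg transcription factor, had 154 ± 34.1 CPM (counts relative to the scaled library total) without and 145 ± 52.1 CPM with oxPAPC (SD, n = 4), and all 14 markers fixed for CD4 T cells and Tregs passed the filter on low counts.

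Interferon gamma is the signature cytokine of Th1 cells and of cytotoxic and natural killer lymphocytes. T-bet is the master regulator of the Th1 program and activates Ifng directly, and Eomes, its close relative, acts in CD8 T cells and natural killer cells. The cytokine binds IFNGR1, which pairs with IFNGR2 to activate the kinases JAK1 and JAK2, which pass the signal to transcription factors. Tregs are known to use this axis in limited form, since T-bet marks a Treg subset at type 1 inflammation while too much interferon gamma weakens their suppressive program.

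The sequence around the start of each gene is shown because Ifng, Tbx21 and Eomes were higher and both receptor genes lower in the oxPAPC libraries. All 5 genes matched the RefSeq promoter table (GRCm38.p6), which gives 250 bases before and 50 bases after the transcription start. Capitals mark every match, on either strand, to TATAAA (the box that marks many regulated starts), AGGTGT (a T-box core motif), TGANTCA (AP-1), TTCNNNGAA (the gamma-activated site of STAT factors), GAAA, any 2 bases, GAAA (the interferon-stimulated response element) or GGGCGG (GC box).
Ifng, chr10:118440796-118441095, plus strand: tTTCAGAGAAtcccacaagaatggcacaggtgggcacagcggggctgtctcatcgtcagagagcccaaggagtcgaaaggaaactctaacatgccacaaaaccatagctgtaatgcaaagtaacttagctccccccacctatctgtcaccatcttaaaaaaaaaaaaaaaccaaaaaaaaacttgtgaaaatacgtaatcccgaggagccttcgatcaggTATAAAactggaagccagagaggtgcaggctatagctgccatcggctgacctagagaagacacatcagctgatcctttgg
Tbx21, chr11:97115282-97115581, minus strand: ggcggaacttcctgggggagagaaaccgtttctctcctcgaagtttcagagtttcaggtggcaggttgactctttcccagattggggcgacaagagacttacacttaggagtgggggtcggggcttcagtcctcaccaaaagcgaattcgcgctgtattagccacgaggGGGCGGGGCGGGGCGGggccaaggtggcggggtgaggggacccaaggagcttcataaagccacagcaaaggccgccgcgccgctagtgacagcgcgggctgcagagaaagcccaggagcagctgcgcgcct
Eomes, chr9:118477939-118478238, plus strand: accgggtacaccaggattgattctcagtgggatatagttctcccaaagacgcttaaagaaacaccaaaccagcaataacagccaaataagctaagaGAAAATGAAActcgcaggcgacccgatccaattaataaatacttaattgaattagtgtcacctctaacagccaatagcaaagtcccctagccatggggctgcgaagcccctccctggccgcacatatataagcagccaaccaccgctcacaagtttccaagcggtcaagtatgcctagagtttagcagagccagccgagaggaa
Ifngr1, chr10:19591699-19591998, plus strand: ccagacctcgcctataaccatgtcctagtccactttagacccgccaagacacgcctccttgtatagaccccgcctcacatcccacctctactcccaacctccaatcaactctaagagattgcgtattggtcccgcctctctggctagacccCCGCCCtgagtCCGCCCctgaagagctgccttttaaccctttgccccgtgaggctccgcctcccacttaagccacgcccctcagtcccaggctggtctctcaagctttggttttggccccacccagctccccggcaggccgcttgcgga
Ifngr2, chr16:91546809-91547108, plus strand: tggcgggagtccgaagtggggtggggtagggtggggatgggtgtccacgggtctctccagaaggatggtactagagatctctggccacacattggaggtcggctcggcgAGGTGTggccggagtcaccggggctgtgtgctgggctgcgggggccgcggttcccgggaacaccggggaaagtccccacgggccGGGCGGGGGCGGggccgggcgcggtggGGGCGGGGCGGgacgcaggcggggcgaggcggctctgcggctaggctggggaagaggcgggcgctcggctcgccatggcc

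The promoters of the 5 genes differed in composition. In the Ifng window 46.0% of the bases were G or C, and the motif TATAAA, known as the TATA box, began at -30 from the start. Among 32851 windows of the same length in that table, 13.6% hold TATAAA. The Ifng window also had a match to the gamma-activated site at -249, a motif found in 8.30% of all windows. Eomes had a G and C content of 47.3% and a match to the interferon-stimulated response element at -154, which 3.44% of all windows hold. Tbx21 had 62.0% G and C and 3 overlapping GC boxes from -81 to -71. Ifngr1 had 60.3% G and C and 2 GC boxes on the reverse strand, and Ifngr2 had 74.3%, above 95.6% of all windows, with 4 GC boxes, which begin at -57, -51, -30 and -25. A GC box is present in 35.7% of all windows. The T-box core AGGTGT, present in 13.7% of windows, matched only in Ifngr2 among these genes, at -141, and the AP-1 motif, present in 7.81%, matched in none of them. A match or its absence in these letters does not show binding of a factor. The RefSeq start lies 23 bases from the gene start of the deposited table for Eomes and 13 bases for Ifngr2, and at the same base for the others.

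Ifng had the largest difference of these genes. The gene (ENSMUSG00000055170.4) lies on chromosome 10 from 118441046 to 118445892 of GRCm38. In the control libraries it was counted 60, 15, 62 and 88 times, which gave 3.99, 1.13, 2.83 and 4.05 CPM in replicates 1 to 4. In the oxPAPC libraries the counts were 813, 834, 2028 and 1820, or 60.7, 55.1, 89.5 and 92.3 CPM. Every oxPAPC library was thus above every control library, and the lowest of the former was 13.6 times the highest of the latter. The log2 fold change was 4.60 ± 0.30 (SE), a 24.3-fold difference, and only 4 of the 16434 tested genes had a higher one. Each library is bulk RNA, so more cells that make a transcript and more RNA per cell cannot be told apart here or for any gene below. Control replicate 2 stood low, with an exact Poisson 95% interval of 0.633 to 1.87 CPM that covers counting error only, against a lower bound of 2.17 CPM in control replicate 3. Without that library the log2 fold change was 4.37.

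Tbx21 and Eomes were also higher in each oxPAPC library than in any control library. Tbx21 (ENSMUSG00000001444.2, chromosome 11, 97098071 to 97115331, minus strand) had 4.66, 4.07, 3.66 and 4.74 CPM in control replicates 1 to 4 and 20.4, 17.1, 30.3 and 17.0 CPM in oxPAPC replicates 1 to 4. Its control libraries were close together, with a coefficient of variation of 11.9%, whereas oxPAPC replicate 3 stood above the other 3. The log2 fold change was 2.31 ± 0.21 (SE), a 4.96-fold difference. Eomes (ENSMUSG00000032446.14, chromosome 9, 118478212 to 118486132) had 3.99, 5.28, 4.57 and 4.83 CPM in control and 9.03, 12.2, 19.0 and 12.8 CPM in oxPAPC libraries, again with replicate 3 highest among the treated. Its log2 fold change was 1.51 ± 0.22 (SE), a 2.85-fold difference, and 1.28 without oxPAPC replicate 3. Ranked by log2 fold change from the highest, Tbx21 was at place 60 and Eomes at place 181 of 16434 genes.

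The receptor genes differed in the opposite direction and by much less. Ifngr1, the ligand-binding chain (ENSMUSG00000020009.13, chromosome 10, 19591949 to 19610229), had 105, 122, 114 and 116 CPM in the control libraries and 81.9, 77.1, 88.5 and 84.0 CPM in the oxPAPC libraries. Ifngr2, the signal-transducing chain (ENSMUSG00000022965.8, chromosome 16, 91547072 to 91565623), had 65.4, 93.3, 69.2 and 77.2 CPM in control and 45.8, 47.9, 54.1 and 43.5 CPM in oxPAPC libraries. The groups did not overlap for either gene, but the nearest libraries of the 2 groups were only 1.19-fold apart for Ifngr1 and 1.21-fold for Ifngr2. The log2 fold changes were -0.46 ± 0.13 for Ifngr1 and -0.67 ± 0.15 for Ifngr2 (SE), or 27.3% and 37.3% lower. All 5 genes were among those with an adjusted p under 0.05 by edgeR's quasi-likelihood test, 3 higher and 2 lower, where 6.75% of all tested genes were called higher and 6.52% lower. Since the genes were chosen from this comparison, nothing is read from these counts. The groups did not overlap for 19.4% of tested genes, 9.5% on the higher and 9.86% on the lower side. With scaling by library size alone neither receptor gene was called, and Ifngr1 was not called without control replicate 2 or 4, without oxPAPC replicate 1, 2 or 4, or in a fit with a block for replicate number.

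**Figure D1:**
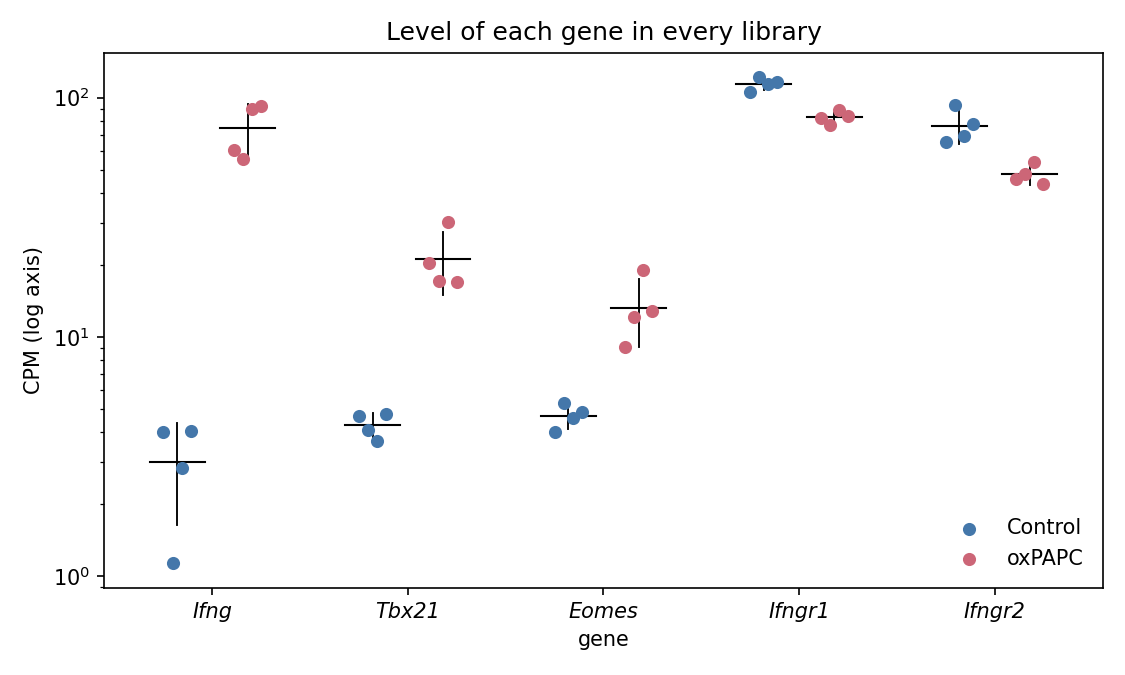
Level of the 5 genes in each library in CPM on a log axis, blue for 4 control and red for 4 oxPAPC libraries, with the group mean (line) and SD (bar). Ifng lies between 1.13 and 4.05 CPM in control and between 55.1 and 92.3 CPM in oxPAPC libraries, and both receptor genes lie lower in the oxPAPC libraries.

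Levels of different genes were compared per kilobase of exon (CPM per kb), with exon lengths from GENCODE M21. In the control libraries the order from the highest was Ifngr1 (40.0 ± 2.40 CPM per kb), Ifngr2 (20.2 ± 3.29), Ifng (2.32 ± 1.05), Tbx21 (1.72 ± 0.205) and Eomes (1.12 ± 0.130; SD, n = 4). Ifng and Tbx21 overlapped between libraries in that order, from 0.874 to 3.13 and from 1.47 to 1.90 CPM per kb, and the other neighbours did not. In the oxPAPC libraries Ifng was first with 57.5 ± 14.8 CPM per kb, ahead of Ifngr1 (29.1 ± 1.66), Ifngr2 (12.7 ± 1.20), Tbx21 (8.52 ± 2.51) and Eomes (3.19 ± 1.00; SD, n = 4). There the neighbours Ifngr2 and Tbx21 overlapped, from 11.6 to 14.3 and from 6.83 to 12.2 CPM per kb. By level per kilobase, Ifng stood above 38.9% of tested genes in control and above 96.1% in oxPAPC libraries, Tbx21 above 32.1% and 72.9%, and Eomes above 23.3% and 47.3%. Ifngr1 stood above 94.6% and 92.2%, and Ifngr2 above 89.1% and 81.5%.

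Ratios within a library describe how unequal the differences were. Ifng over Tbx21, per kilobase, was 1.65, 0.534, 1.49 and 1.64 in control replicates 1 to 4 and 5.72, 6.19, 5.68 and 10.4 in oxPAPC replicates 1 to 4. The level of Ifng was thus higher relative to Tbx21 in every oxPAPC library. Tbx21 over Eomes was 1.55 ± 0.306 in control and 2.75 ± 0.703 in oxPAPC libraries (SD, n = 4 each). Ifngr1 over Ifngr2 was 2.00 ± 0.203 and 2.30 ± 0.197 (SD, n = 4 each), with overlapping groups. Tbx21 over Foxp3 was 0.0530 ± 0.0138 and 0.286 ± 0.0963 (SD, n = 4 each), so that T-bet transcripts stayed below Foxp3 transcripts per kilobase in each oxPAPC library, at a ratio of at most 0.423.

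The 5 genes did not share a single order of libraries within the groups. In control replicate 2, where Ifng was 1.18 below its group mean on the log2 CPM scale, Ifngr2 was 0.30 above its mean and Eomes 0.18 above. This library also had the largest share of counts in Gm26917, a noncoding gene, at 29.1% against 8.59% to 19.7% in the other control libraries, and the part of that share in the low Ifng value was not tested. In oxPAPC replicate 3, Tbx21 and Eomes were 0.55 and 0.57 above their means and Ifng 0.30 above, while in oxPAPC replicate 4 Ifng was 0.35 above and Tbx21 0.28 below (a deviation of -0.28). In oxPAPC replicate 3 the summed level of the CD8 T cell markers was also highest, at 18.7 CPM against 10.9 to 12.0 CPM in the other treated libraries. Its part in the values of Tbx21 and Eomes was not tested. Both receptor genes were highest among treated libraries in the same replicate, by 0.10 and 0.18 above their means.

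**Figure D2:**
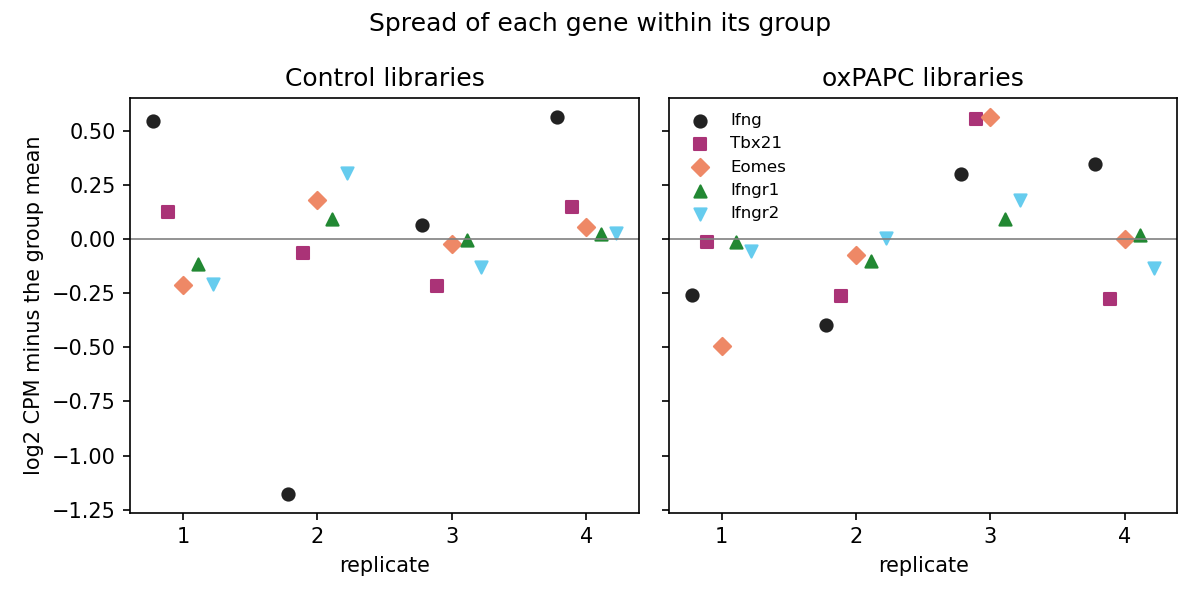
Deviation of each gene from its group mean on the log2 CPM scale, by replicate, in the control (left) and oxPAPC (right) libraries. Ifng of control replicate 2 lies at -1.18, and Tbx21 and Eomes lie highest in oxPAPC replicate 3.

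Among 23 tested inducers and activators of Ifng, 5 rose, 18 did not pass the test and none fell, beside 6.75% of all tested genes that rose and 6.52% that fell. The median log2 fold change of this list was 0.24, against -0.01 for all tested genes. Il12rb1, a chain of the interleukin 12 receptor, had a log2 fold change of 1.16 ± 0.20 (SE, adjusted p 0.00174 by edgeR), from 31.8 to 71.0 CPM. Irf1, a transcription factor that interferon gamma itself induces, rose by 0.96 (edgeR adjusted p = 0.000539). Batf, an AP-1 family factor, rose by 0.93, and Id2, an inhibitor of E proteins, by 0.70, a call that was lost without oxPAPC replicate 4 (edgeR adjusted p = 0.0534). The partner chain of that receptor did not pass the test. Il12rb2 had 33.0 CPM without and 33.1 CPM with oxPAPC (log2 fold change 0.00, edgeR adjusted p = 0.991). Stat4, which carries the interleukin 12 signal, had a log2 fold change of -0.17 (edgeR adjusted p = 0.675), Runx3, a partner of T-bet, -0.02 (0.964), Il18r1 -0.40 (0.0977) and Bhlhe40 0.43 (0.151). Prdm1, which encodes BLIMP-1, had 0.87 (edgeR adjusted p = 0.0594) and passed with DESeq2 (0.0471). It is counted in this list, but whether it activates or restrains Ifng in these cells was not tested.

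Genes that restrain Ifng went the other way where they passed. Of 18 tested members 5 fell, none rose and 13 did not pass, beside 6.52% of all tested genes that fell and 6.75% that rose. The list had a median log2 fold change of -0.08, against -0.01 for all tested genes. Bcl6, a repressor that opposes T-bet, fell by 1.18 ± 0.24 (SE, adjusted p 0.00554 by edgeR), from 4.54 to 1.98 CPM. Zfp36, which encodes an RNA-binding protein that destabilizes cytokine transcripts, fell by 0.75 (edgeR adjusted p = 0.00637). Tgfbr2, Smad3 and Tcf7 had log2 fold changes of -0.56, -0.45 and -0.61 (edgeR adjusted p of 0.0216, 0.0420 and 0.0439). These 3 calls were less firm. Each was lost without control replicate 2 (edgeR adjusted p of 0.0815, 0.124 and 0.119), without oxPAPC replicate 1 (0.0703, 0.137 and 0.132), without oxPAPC replicate 4 (0.0802, 0.111 and 0.0766) and with library size scaling (0.177, 0.347 and 0.224). The calls of Smad3 and Tcf7 were also lost without control replicate 4 (0.0946 and 0.109) and without oxPAPC replicate 2 (0.0577 and 0.118), that of Smad3 without control replicate 1 (0.0578), and that of Tcf7 without control replicate 3 (0.0590). The block by replicate number ended all 3 (0.0523, 0.0663 and 0.0632), RLE scaling and the lack of a filter ended those of Smad3 and Tcf7, and DESeq2 that of Smad3 (0.0548). With a library left out, 2 to 5 members of this list were called. Foxp3, Bach2 and Gata3 did not pass, with log2 fold changes of -0.09, -0.04 and 0.23 (edgeR adjusted p of 0.854, 0.901 and 0.459), and Tgfbr1 had -0.23 (0.358).

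Genes of the T-bet and Eomes effector program rose in larger part. Of the 20 listed, 12 were tested, of which 8 rose, 4 did not pass and none fell. Among all tested genes 6.75% rose and 6.52% fell. The median log2 fold change of the 12 was 1.37, against -0.01 for all tested genes. Ccl3 and Ccl4, which encode chemokines of the CC family, had log2 fold changes of 3.39 ± 0.44 and 3.28 ± 0.27 (SE, adjusted p 0.000302 and 1.02e-05 by edgeR), at low control levels of 0.476 and 0.841 CPM. The cytokine genes Lta and Tnf rose by 1.76 and 1.44, to 198 and 45.3 CPM, and the chemokine gene Xcl1 by 1.31. Gzmb, the granzyme of cytotoxic cells, rose by 1.48 ± 0.20 (SE, adjusted p 0.000408 by edgeR), from 8.02 to 22.4 CPM. Some listed genes were near the limit of detection. Prf1, which encodes perforin, had 0.270 and 0.416 CPM and Ccl5 had 0.319 and 0.765 CPM in control and oxPAPC libraries, and both were removed by the filter. Gzma was not analysed here. Cxcr3, a direct target of T-bet, had 0.60 (edgeR adjusted p = 0.0769) and passed with DESeq2 (0.0427) and without oxPAPC replicate 2 (0.0408 by edgeR). Fasl, a death ligand of cytotoxic cells, rose by 0.55, and did not pass without control replicate 2, oxPAPC replicate 1 or oxPAPC replicate 4 (0.0507 to 0.0588 by edgeR). When genes under a mean of 5 CPM were removed, 4 of this list were called.

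Of 15 tested genes that carry or brake the signal of the interferon gamma receptor, 4 rose, 11 did not pass and none fell. Among all tested genes 6.75% rose and 6.52% fell. The list had a median log2 fold change of 0.17, against -0.01 for all tested genes. The kinase genes Jak1 and Jak2 had -0.10 and -0.30 (edgeR adjusted p of 0.781 and 0.181). Besides Irf1, the genes that rose included Irf9, a partner of STAT proteins, by 0.64 (edgeR adjusted p = 0.00631), and Socs1, the feedback inhibitor of JAK kinases, by 0.66 (0.0346), from 130 to 206 CPM. The Socs1 call was lost without control replicate 1 or 3, without oxPAPC replicate 1, 2 or 3 (0.0580 to 0.0925 by edgeR) and in the block by replicate number (0.0908). Cish, another feedback inhibitor, had 0.45 (edgeR adjusted p = 0.0527) and passed with DESeq2 (0.000945) and without oxPAPC replicate 3 (0.0489 by edgeR), and Pias1, an inhibitor of STAT signaling, had -0.45 (0.0608).

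Downstream, genes that interferon gamma induces were higher in larger numbers. Of 27 tested members 18 rose, 9 did not pass and none fell, beside 6.75% of all tested genes that rose and 6.52% that fell. The list had a median log2 fold change of 0.92, against -0.01 for all tested genes. Iigp1 and Irgm1, GTPases that defend against intracellular pathogens, had 4.11 ± 0.22 and 2.08 ± 0.16 (SE, adjusted p 4.97e-07 and 4.39e-06 by edgeR). Parp14, Gbp2 and Igtp rose by 1.72, 1.89 and 1.3. Irf8 had 0.52 (edgeR adjusted p = 0.0870) and passed with DESeq2 (0.0458). Many of these genes also respond to type I interferons, so the list does not separate the signals.

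**Figure D3:**
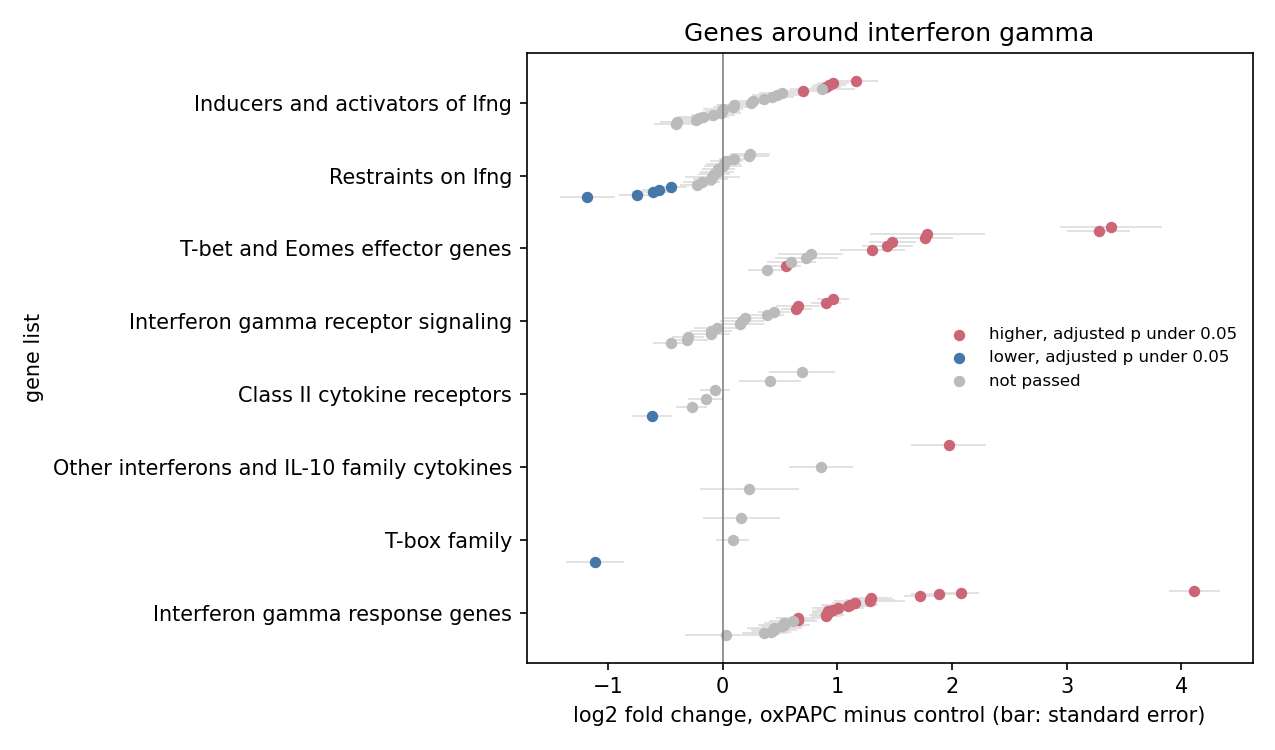
Log2 fold change (points, with standard errors) of each tested gene in 8 lists around interferon gamma, red and blue where the adjusted p is under 0.05. Red points gather in the effector and response lists, with 8 of 12 and 18 of 27 genes, and blue points are most numerous in the list of restraints, with 5 of 18, a count that was 2 to 5 under the alternatives. Of all tested genes 6.75% were called higher and 6.52% lower.

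The relatives of the receptor and of the cytokine were compared with them. Among 6 tested class II cytokine receptor genes other than Ifngr1 and Ifngr2, 1 fell and none rose, with a median log2 fold change of -0.11. Of all tested genes 6.52% fell and 13.3% were called either way. Ifnar2, a chain of the type I interferon receptor, fell by 0.62 ± 0.17 (SE, adjusted p 0.0291 by edgeR), from 65.2 to 42.5 CPM. Leaving out control replicate 1, 2 or 4, or oxPAPC replicate 2 or 4, ended that call (edgeR adjusted p of 0.0587 to 0.103), under library size scaling (0.110) and in the block by replicate number (0.0744). Its partner chain Ifnar1 had -0.27 (edgeR adjusted p = 0.227), and the interleukin 10 receptor genes Il10ra and Il10rb had -0.15 and -0.07 (0.595 and 0.797). Il20rb and Ifnlr1, both under 3 CPM, had 0.69 and 0.41 (0.137 and 0.360). Of the other interferons and interleukin 10 relatives, 3 of 13 were tested. Il10, whose product damps inflammation, rose by 1.97 ± 0.33 (SE, adjusted p 0.00147 by edgeR), from a low control level of 0.598 CPM to 2.43 CPM. Il24 had 0.86 (edgeR adjusted p = 0.0563) and passed with DESeq2 (0.0254) and without oxPAPC replicate 2 (0.0441), and Ifnk had 0.23 (0.784). Il22, the genomic neighbour of Ifng in the class II cytokine family, was not analysed here, nor was Ifnb1.

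Of the other T-box genes 3 of 15 were tested, and none of these rose, 1 fell and their median log2 fold change was 0.09. Among all tested genes 6.75% rose and 6.52% fell. Tbx6, known from mesoderm development, fell by 1.11 ± 0.25 (SE, adjusted p 0.0104 by edgeR), from 7.42 to 3.40 CPM. Tbr1, the closest relative of Eomes, had 0.16 (edgeR adjusted p = 0.803) at under 2 CPM, and Mga, which joins a T-box to a MAX-binding domain, had 0.09 (0.760).

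Genes beside the members in the genome were described next. For each member the 3 nearest rows of the table on either side were taken, 30 in all, of which 24 were tested. Of these 3 rose and 2 fell, where 6.75% of all tested genes rose and 6.52% fell, and their median log2 fold change was -0.15. Next to Tbx21, Tbkbp1, which encodes a TBK1-binding adaptor and starts 38.1 kb away, had 2.33, 2.19, 1.78 and 2.16 CPM in control replicates 1 to 4 and 4.40, 5.55, 7.99 and 5.93 CPM in oxPAPC replicates 1 to 4. Its log2 fold change was 1.51 ± 0.24 (SE, adjusted p 0.00102 by edgeR), and like Tbx21 it was highest in oxPAPC replicate 3. That library was also highest for genes elsewhere in the genome, such as Eomes, Foxp3, Lta and Gata3, so the trait is not particular to this pair. On the other side of Tbx21, Osbpl7 had 0.06 (edgeR adjusted p = 0.867). Inside Ifng, on the same strand, lies Gm49751, a transcript whose annotation is provisional with 0.232 CPM without and 0.850 CPM with oxPAPC (log2 fold change 1.81, edgeR adjusted p = 0.0109), and reads of the overlapping genes cannot be told apart with certainty. The nearest protein-coding genes around Ifng among those analysed, Mdm1 and Dyrk2, had -0.06 and -0.49 (edgeR adjusted p of 0.855 and 0.0531), and Dyrk2 passed without control replicate 3 (0.0278). Gm33460, antisense to the end of Eomes, had 0.210 and 0.442 CPM and was removed by the filter, and Golga4 beyond it had -0.03 (edgeR adjusted p = 0.910). Ifngr2 lies in the receptor cluster that also holds Ifnar1. There Dnajc28, 67.2 kb away, had -1.77 ± 0.44 (SE, adjusted p 0.0159 by edgeR), the pseudogene Gm7856 -2.22 (0.00457), both under 2 CPM in controls, and Tmem50b -0.49 (0.0652), which passed without oxPAPC replicate 3 or 4 (0.0446 and 0.0455). Near Ifngr1, Perp rose by 0.60 with its start at -746.9 kb (edgeR adjusted p = 0.0225), which did not pass when control replicate 2 or 4, or oxPAPC replicate 1, was left out (0.0543 to 0.0816).

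**Figure D4:**
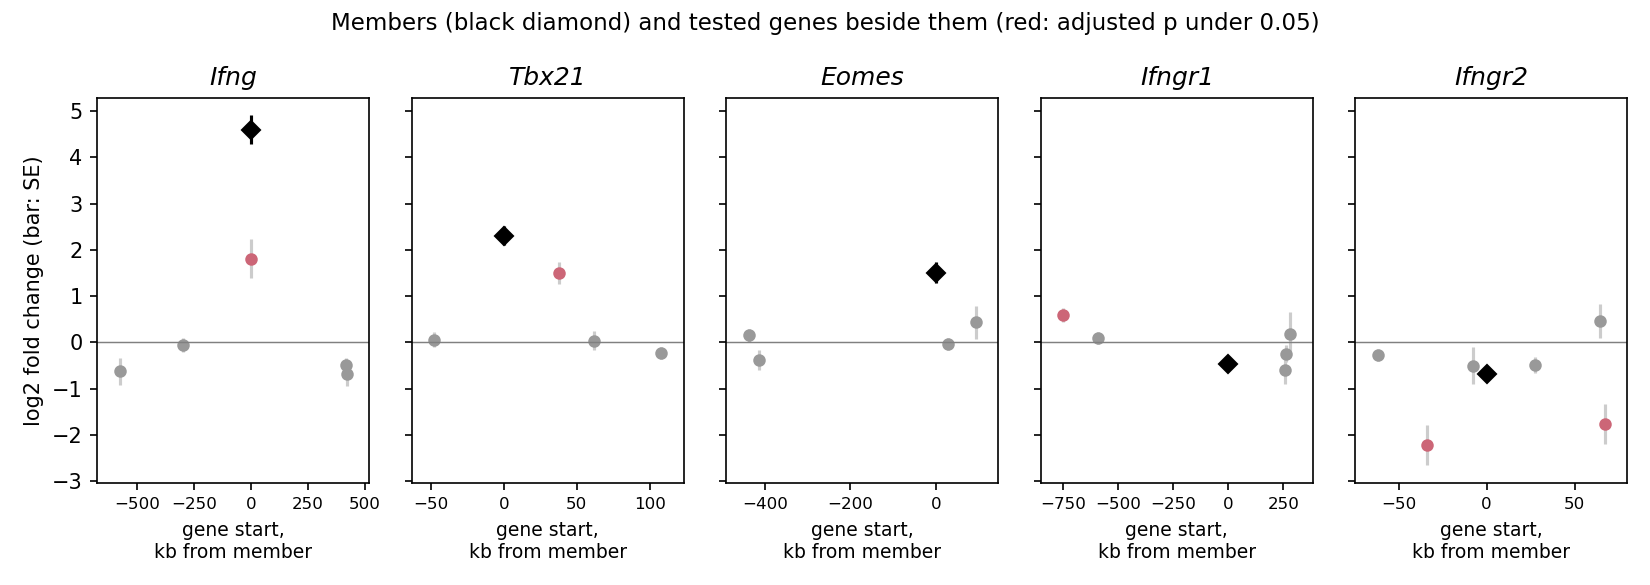
Log2 fold change with SE of each member (black diamond) and of the tested genes among its 6 neighbours, against the distance between gene starts in kb. Around Ifng, Tbx21 and Eomes only Gm49751 and Tbkbp1 (red) were called higher, at 1.81 and 1.51.

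The genes whose profile over the 8 libraries was most like each member were found by the root mean square difference between centred log2 CPM values, among 9445 genes with a mean of at least 5 CPM. The difference between the groups enters this measure, so it is given as a description. For Ifng the nearest were Il13, Iigp1, Ly6a and Xaf1, at 0.44, 0.51, 0.52 and 0.95. Il13, a type 2 cytokine, had a log2 fold change of 4.83 and Ly6a, the surface antigen Sca-1, of 3.82. Tbx21 was nearest to Ccn4, Lif, Scin and Crabp2, at 0.17, 0.20, 0.21 and 0.23. Lif, a cytokine of the interleukin 6 family, had 47.0 ± 9.42 CPM in control and 238 ± 24.1 CPM in treated libraries (SD, n = 4). Eomes was nearest to Helz2, Irf4, Tgm2 and Dgat2, from 0.18 to 0.21, and Irf4, a transcription factor of activated T cells, had 1.43. Ifngr1 was nearest to Nxpe3, Wdr48, Add3 and Idua, from 0.05 to 0.06, and Ifngr2 to Zfp36, Evi5l, Foxo3 and Gtf2ird1, from 0.06 to 0.07. Foxo3, a forkhead factor of quiescent lymphocytes, had 117 ± 23.3 CPM in control and 72.1 ± 11.4 CPM in treated libraries (SD, n = 4).

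Markers of other lymphocytes that make interferon gamma were low and moved with the groups. Of 11 natural killer and innate lymphoid markers 7 were in the table, with a summed level of 9.28 to 12.5 CPM without and 14.8 to 17.0 CPM with oxPAPC (two-sided exact permutation p = 0.0286, the smallest possible with 4 against 4, and 0.05 after Benjamini-Hochberg adjustment over 7 marker lists). Klrk1, which encodes the receptor NKG2D, rose from 0.601 to 2.66 CPM and Il1rl1, the interleukin 33 receptor that Tregs also carry, from 0.743 to 2.05 CPM (edgeR adjusted p of 0.000589 and 0.0108), while Tyrobp had 0.648 and 0.709 CPM (0.867). The defining markers Ncr1 and Klrb1c were not analysed here. The CD8 markers summed to 6.72 to 8.90 CPM without and 10.9 to 18.7 CPM with oxPAPC (two-sided exact permutation p = 0.0286, adjusted p = 0.05). Cd8a rose from 2.17 to 6.81 CPM (edgeR adjusted p = 0.00103) and Cd8b1, the other chain of the coreceptor, had 5.96 and 6.33 CPM (0.840). The part of such cells in the levels of Ifng, Tbx21 and Eomes was not tested. Gamma delta T cell markers summed to 1.28 to 2.65 CPM without and 2.24 to 3.97 CPM with oxPAPC (two-sided exact permutation p = 0.0571, adjusted p = 0.0800). B and plasma cell markers (12.1 to 16.9 and 17.0 to 20.3 CPM) and myeloid markers (9.88 to 15.2 and 21.0 to 24.6 CPM) were higher without overlap (two-sided exact permutation p = 0.0286 for each, adjusted p = 0.05). Erythroid and platelet markers summed to 4.30 to 6.95 and 4.63 to 12.2 CPM (exact permutation p = 0.343). The CD4 T cell and Treg markers summed to 3236 to 3428 CPM without and 3071 to 3817 CPM with oxPAPC (two-sided exact permutation p = 0.686). Of these 14, only 1, Cd28, fell, by 0.85 (edgeR adjusted p = 0.00651), where 6.52% of all tested genes fell. That call was lost with library size scaling (0.0566).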

How the data were processed

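RNA-seq counts of 4 control and 4 oxPAPC libraries were analysed. The authors deposited whole-number counts per gene, not normalized, with library totals of 14017583 to 21619731. The same table holds the authors' deposited DESeq2 results, with mean normalized counts (a signal per group), log2 fold changes, a linear fold ratio, the Wald score and p-values, per the file headers. Alignment to GRCm38.p6 with STAR 2.7.8a, counting with featureCounts 2.0.2 and testing with DESeq2 1.30.1 are listed in the submitters' processing notes. Whether counting used strand is not stated there. Every gene in the table reached 5 counts in 2 libraries or more.

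Counts were filtered with filterByExpr (16434 genes left), scaled by TMM and tested in R 4.3.3 by the edgeR 4.0.16 quasi-likelihood method, with Benjamini-Hochberg adjustment over all tested genes and a threshold of 0.05. Each standard error was taken as the absolute log2 difference over the root of edgeR's F. Log2 CPM used a prior count of 2. The common biological coefficient of variation was 0.207. Exon lengths came from GENCODE M21, whose identifiers matched 97.8% of genes. Summed marker levels were compared by exact permutation. Alternatives were RLE and library size scaling, other filters, DESeq2 1.42.0, voom of limma 3.58.1, a replicate block, each library left out, and, added after seeing the data, removal of Gm26917.

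The 5 genes, the 8 pathway and 7 marker lists, and the alternatives were chosen with earlier results of these data known. The text names the members, up to 6 genes per pathway list with the smallest adjusted p plus a preset group, genes beside the members, and the 4 genes most like each member. Other genes, such as Fasl and the markers, were chosen after their values were seen. Some members of the lists are counted but not reported here by name.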

Additional observations from a re-analysis of the deposited data

Results flagged for a closer look

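Each gene or marker sum named was examined within each group for a library standing apart. Chance flags about 1 in 20 such groups of 4, and 7 of 194 were found. None was a value of Ifng, Tbx21, Eomes, Ifngr1 or Ifngr2. The summed CD8 T cell markers had 18.7 CPM in oxPAPC replicate 3, against 10.9 to 12.0 CPM in the others, and Tgm2 had 50.6 CPM in the same library, against 27.8 to 30.9 CPM. Fasl had 26.0 CPM in oxPAPC replicate 2, against 32.8 to 33.9 CPM, and Perp 44.7 CPM in oxPAPC replicate 1, against 33.4 to 35.3 CPM. In control replicate 1, Ifnar1 had 91.4 CPM, against 105 to 107 CPM, and Golga4 98.4 CPM, against 104 to 105 CPM. Il20rb had 0.755 CPM in control replicate 2, against 1.73 to 1.84 CPM.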

How the results depend on the processing

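The log2 fold changes of Ifng, Tbx21, Eomes, Ifngr1 and Ifngr2 kept their direction under all 17 alternatives. With a library left out they ranged from 4.37 to 4.79 for Ifng, 2.08 to 2.40 for Tbx21, 1.28 to 1.65 for Eomes, -0.50 to -0.42 for Ifngr1 and -0.74 to -0.56 for Ifngr2. Scaling by library size moved the median of all genes from -0.01 to 0.12 and the value of Ifngr1 to -0.32. It called 458 lower genes, so that 71.6% of calls were higher against 50.9%, and 3 lower genes in the pathway lists, against 7. For the replicate block, correlations of deviations between libraries sharing a number were 0.321, -0.0528, -0.368 and -0.0354, and 2 of 8 libraries were closest to their own number, so no pairing was assumed. The replicate block called 1453 genes, 708 of them lower, and 3 lower genes in the pathway lists. With a library left out, and so fewer samples in each fit, 1390 to 2134 genes were called, 710 to 1057 higher and 680 to 1144 lower, with 3 to 7 lower genes in the pathway lists. Summed CPM (oxPAPC minus control) differed by -74.4 to 174 for CD4 T cell and Treg markers, turning negative without oxPAPC replicate 3 or 4, by 3.14 to 5.75 for CD8 markers and by 3.76 to 5.36 for B and plasma cell markers. The last was 5.90 with library size scaling (unadjusted two-sided exact permutation p = 0.0857). Of 85 other tested genes named, 51 passed, and 38 of these kept direction and call throughout. Among genes that did not pass, library size scaling turned Runx3 (0.131), Foxp3 (0.052), Bach2 (0.10), Jak1 (0.0402), Il10rb (0.062), Mdm1 (0.0727) and Golga4 (0.10). Runx3 also turned with RLE scaling (0.00334) and with DESeq2 (0.0101, with or without its filters), and Il12rb2 with the 5 CPM filter (-0.0147). With a library left out, log2 values that crossed 0 ranged from -0.29 to 0.13 for Stat4, -0.0815 to 0.14 for Il12rb2, -0.16 to 0.0874 for Runx3, -0.33 to 0.089 for Foxp3, -0.12 to 0.0302 for Bach2, -0.26 to 0.0057 for Jak1, -0.13 to 0.00287 for Il10rb, -0.0867 to 0.50 for Ifnk, -0.000128 to 0.21 for Mga, -0.0652 to 0.40 for Tbr1, -0.11 to 0.0169 for Mdm1, -0.0521 to 0.17 for Osbpl7, -0.11 to 0.22 for Cd8b1 and -0.14 to 0.68 for Tyrobp. The causes were not tested.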

Other observations

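The authors' deposited table gives no p-value for 1014 genes, and Tbx21 is the only gene among the 5 described for which it is missing. In the authors' deposited table its log2 fold change is 2.34 with a standard error of 0.24, beside mean normalized counts of 73.6 in control and 372 in oxPAPC libraries. In a DESeq2 1.42.0 fit of the same counts, Cook's distance, which measures how far a single library moves a gene's fit, was largest for Tbx21 in oxPAPC replicate 3, at 1.12, against a default threshold of 10.9. For Eomes the largest value, 0.369, also fell on that library, and for Ifng, 0.231, on control replicate 2. Among the 1014 genes without a p-value the largest Cook's distance was at least 0.99, a level close to the 99th percentile (0.984) of the genes that have a p-value. The fit made here left a single gene without a p-value. No source used here states the threshold of the authors.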
